A study of Rattus norvegicus with 46 samples.

Results

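Interferon-stimulated genes are the genes that cells switch on when an interferon binds its receptor. A list of 47 of them was read in irradiated rat skin, by taking every feature of a Clariom S array whose annotation names 1 of the listed symbols and no other gene. Of the 47 symbols, 44 had such a feature, 1 each, among 23188 features tested, and Xaf1, Herc6 and Parp12 were not analysed here.

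The skin came from Sprague-Dawley rats, an outbred laboratory stock, and was taken as 5 mm punches from the abdomen of 9 rats that were each biopsied repeatedly. Baseline punches of day -10 (6 arrays) came before any injection or radiation. Of 3 arms, 1 was irradiated and given RTA-408 in DMSO, 1 was irradiated and given DMSO vehicle, and 1 was given vehicle and sham radiation. The dose was 40 Gy of 6 MeV electrons, split into 4 equal fractions of 10 Gy over 8 days. Injections fell on days -7, -5, -3 and 0, and biopsies on days -4, 1, 3, 7 and 14, so that day -4 lies within the radiation course. Each irradiated arm has 3 arrays per day and the unirradiated vehicle arm 2, each array from a different rat of that arm. RTA-408 (omaveloxolone) is a triterpenoid that activates NRF2, the transcription factor of antioxidant genes. The dose of RTA-408 and the age of the rats are not given in the sources used here.

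As background, type I and type III interferons signal through JAK kinases to a complex, with STAT2 and IRF9 among its parts, that binds the interferon-stimulated response element (ISRE), while the response to interferon gamma runs through the gamma-activated site (GAS). The genes so induced encode sensors of foreign RNA, enzymes and GTPases that block viruses, chemokines that draw lymphocytes, and the regulators that amplify or end the response. In skin, keratinocytes, fibroblasts and infiltrating immune cells can all carry the response.

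The stretch upstream of a gene's start shows the element through which this response is known to run. RefSeq promoters (build GRCr8) were matched by symbol for 33 of the 44 genes, and the 250 bases before the start were searched on both strands. The ISRE core, GAAA followed after any 2 bases by GAAA (TTTC, any 2 bases and TTTC on the other strand), was found in 20 of these 33 genes (60.6%), against 992 of 27457 promoters in all (3.61%). The GAS core TTCNNNGAA was found in 8 of 33 (24.2%), against 8.19% of all promoters. A match of these letters is a description and not a measured binding site. Shown are the 100 bases before the start, on the gene's own strand from 5′ to 3′, for a gene from each of 6 roles described below, with the ISRE core in capitals.
Ifitm3: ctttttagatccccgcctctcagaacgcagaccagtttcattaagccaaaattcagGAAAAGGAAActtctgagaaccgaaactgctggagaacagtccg
Eif2ak2: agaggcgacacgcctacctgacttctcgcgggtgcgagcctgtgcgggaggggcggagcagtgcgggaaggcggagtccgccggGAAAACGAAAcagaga
Oas1a: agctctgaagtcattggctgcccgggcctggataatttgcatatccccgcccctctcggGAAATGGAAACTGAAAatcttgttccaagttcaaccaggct
Ifit3: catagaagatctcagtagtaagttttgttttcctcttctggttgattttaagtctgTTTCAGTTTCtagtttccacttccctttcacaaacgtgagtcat
Irf7: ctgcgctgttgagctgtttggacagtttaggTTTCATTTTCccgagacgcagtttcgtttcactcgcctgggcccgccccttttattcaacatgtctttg
Gbp2: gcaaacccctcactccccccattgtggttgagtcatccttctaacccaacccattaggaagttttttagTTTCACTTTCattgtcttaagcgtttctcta
Ifitm3 lies at chr1:205541759-205541858 on the minus strand, Eif2ak2 at chr6:21941054-21941153 on the plus strand and Oas1a at chr12:41330366-41330465 on the plus strand. Ifit3 lies at chr1:241527226-241527325 on the plus strand, Irf7 at chr1:205800024-205800123 on the minus strand and Gbp2 at chr2:234005627-234005726 on the plus strand. In Oas1a 2 matches overlap. These 6 were chosen among the genes that hold the core in this stretch.

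The unit throughout is the deposited log2 signal, on which array medians lay between 6.84 and 6.95 and the median of the negative control features between 5.78 and 6.52. Its scale reaches 19.66 to 19.93 and is wider than that of a 16-bit scan, so differences are given in log2 units and not as folds. A gene is called where limma's moderated test has a Benjamini-Hochberg adjusted p under 0.05 over all 23188 features. Where every array of a group lay at or below its negative controls, the difference is counted from their median and given as at least. The p beside such a bound is from the fit on the values as deposited, so it tests the measured difference and not the bound. Where only some arrays of a group lay so low, the difference is given as measured and includes signal under the negative controls. Keratinocyte markers (Krt14, Krt1, Krt15 and Dsg3) and the fibroblast marker Col1a1 were above the negative controls on all 46 arrays. Replicate 3 of irradiated vehicle skin on day 14 stood apart: its mean over the 44 genes was 10.46, against 8.05 and 8.49 in the other arrays of that group. Replicate 3 of this arm is the same animal, rat 320, on every day, and that rat has no baseline array. Arrays were left out singly, so results without replicate 3 of day 7 and of day 14 are not independent of each other. By their spike-in controls the arrays fall into set I (18 arrays), set II (10 arrays) and set III (18 arrays). All baseline arrays were in set I and no array of days 3, 7 or 14 was, so baseline and later days cannot be compared within a set. Values with the set as a block stand beside those results. Shares of all features are given for the main fit alone. A count with a block or without an array is therefore read only against the main count, and not as particular to these genes.

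Against baseline, few of the 44 genes were called higher on days -4, 1 and 3, and the counts were highest on day 7 in RTA-408 skin and on day 14 in vehicle skin. In irradiated skin with RTA-408, 5 genes (11.4%) were called higher on day -4, against 4.22% of all features, 6 (13.6%) on day 1, against 6.17%, and 7 (15.9%) on day 3, against 5.33%. On day 7 the count was 41 of 44 (93.2%), against 9.12% of all features, and on day 14 it was 16 (36.4%), against 5.53%. In irradiated vehicle skin, 3 genes (6.82%) were called higher on day -4, against 6.46% of features, 5 (11.4%) on day 1, against 5.08%, and 3 (6.82%) on day 3, against 4.57%. There, 23 of 44 (52.3%) were called higher on day 7, against 7.92% of features, and 35 (79.5%) on day 14, against 9.47%. The median difference from baseline in RTA-408 skin was 2.04 on day 7 and 1.00 on day 14, and in vehicle skin 1.18 on day 7 and 1.78 on day 14, while the median over all features lay between -0.01 and 0.04 on these days. With values raised to the negative control median, the vehicle median of day 14 was 1.22. These 2 sets of differences share the baseline arrays. In whole skin, fewer cells of a type and less RNA per cell cannot be told apart, and the same holds for more of either. With the rat as a block, where the rats of replicates 1 and 2 of each irradiated arm have a baseline array and that of replicate 3 has none, 37 genes were called in RTA-408 skin on day 7 and 9 on day 14, and 9 in vehicle skin on day 7 and 15 on day 14. On the earlier days the block left 1 gene in RTA-408 skin on day -4 and 4 on day 3, and none in vehicle skin on day 1 and 1 on day 3. With the spike-in set as a block, 20 genes were called in RTA-408 skin on day 7 and 2 on day 14 (Bst2 and Trim25), and 5 in vehicle skin on day 7 and 9 on day 14. On day 3 the set as a block left 1 gene in RTA-408 skin and none in vehicle skin, and on day -4 it left 2 in RTA-408 skin. Without replicate 3 of vehicle skin on day 14, 11 genes were called there and the median difference was 1.01, and in a fit of those 2 groups alone 9 were called. Without replicate 3 of vehicle skin on day 7, which is from the same rat, 11 genes were called on that day. Leaving out any of the 3 arrays of RTA-408 skin on day 14 gave 9 or 10 called genes, and leaving out replicate 3 of RTA-408 skin on day -4 left none. Without baseline replicate 1, 3 or 5 the count in RTA-408 skin on day -4 was 3, and without baseline replicate 4 that on day 1 was 10. In vehicle skin the count was 3 without its replicate 2 of day 1 and 1 without its replicate 1 of day 3.

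**Figure D1:**
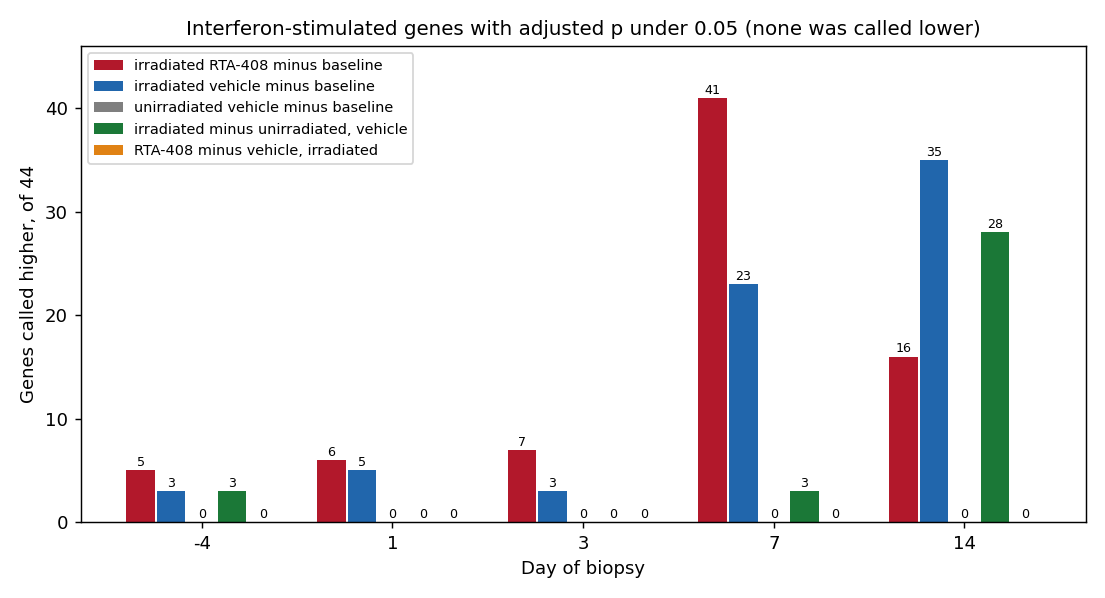
Number of the 44 interferon-stimulated genes called higher (adjusted p under 0.05) in each comparison and on each day of biopsy, with the number above each bar. The counts against baseline reach 41 in RTA-408 skin on day 7 and 35 in vehicle skin on day 14, the radiation comparison reaches 28 on day 14, and the drug comparison and unirradiated skin stay at 0 on all 5 days.

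**Figure D2:**
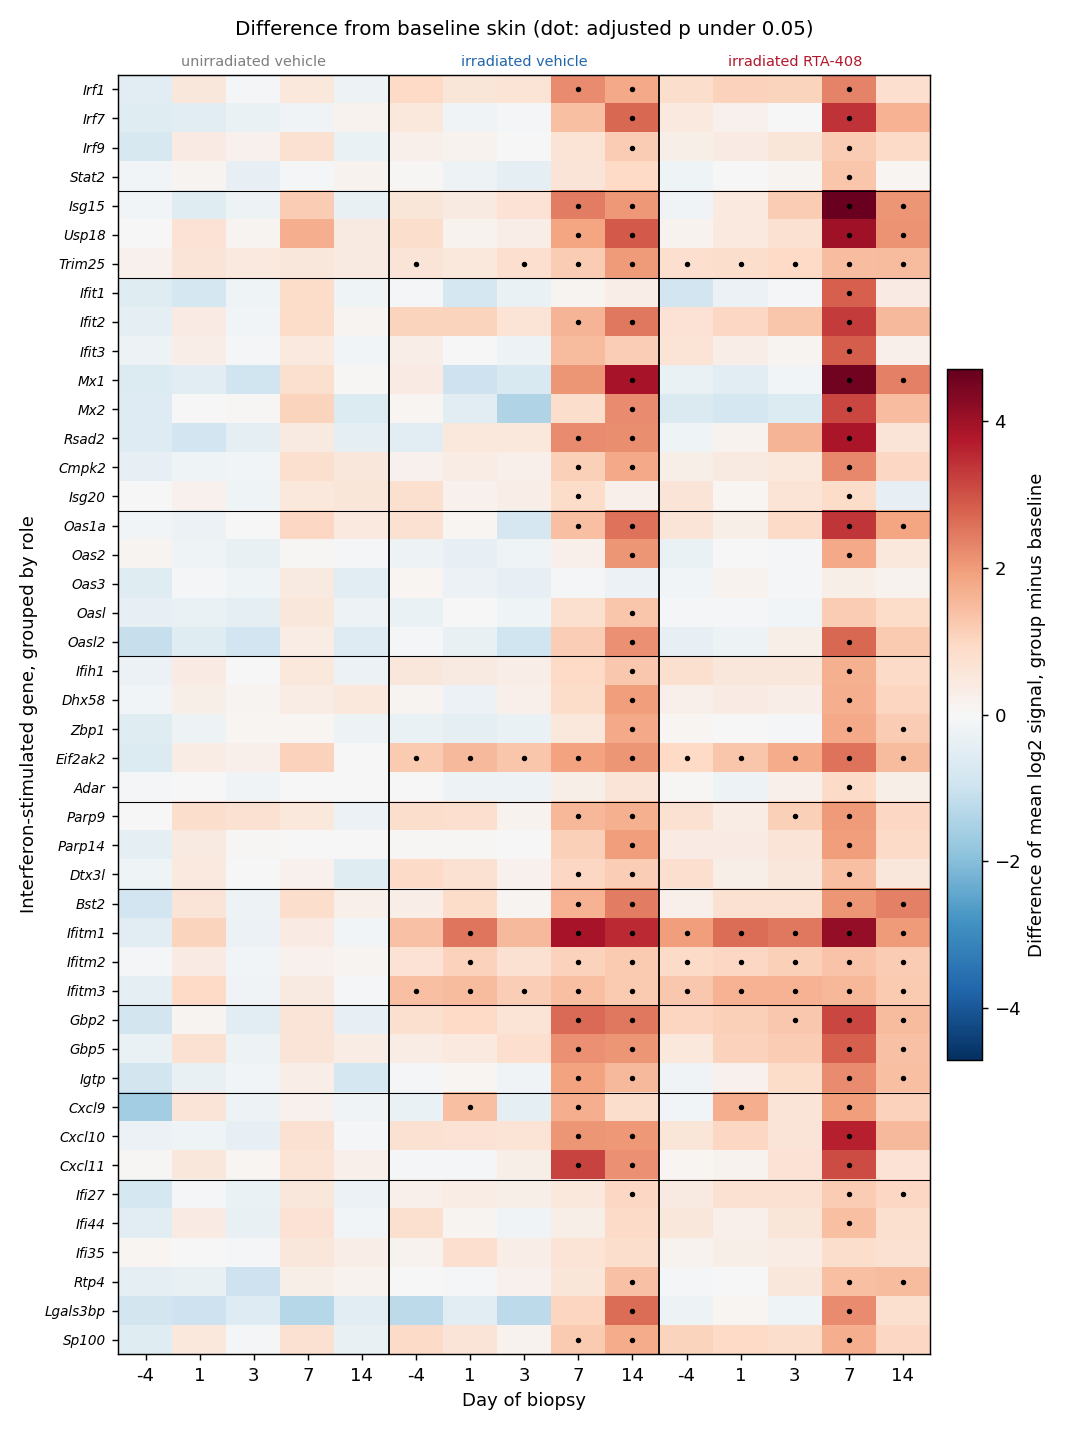
Difference of mean log2 signal from baseline for each of the 44 genes (rows, grouped by role) in each arm on each day (columns), with a dot where the adjusted p is under 0.05, as measured also for genes at the negative controls. The columns of day 7 in RTA-408 skin and of days 7 and 14 in vehicle skin hold most of the dots, 3 to 7 genes have dots on each early day in either arm, and unirradiated skin has none.

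A small group of genes was called higher than baseline on all 5 days in the main fit. On the early days several of these calls were lost with the rat or the spike-in set as a block, as given above. Against unirradiated skin of the same day no gene was called on days 1 and 3. Ifitm1, Ifitm2 and Ifitm3, membrane proteins that hinder the entry of enveloped viruses, were called in RTA-408 skin on all 5 days, together with Trim25, a ubiquitin ligase of the RIG-I pathway, and Eif2ak2, the RNA-activated kinase PKR that halts translation. In vehicle skin Eif2ak2 and Ifitm3 were called on all 5 days. Ifitm3 read 14.68 at the lowest, 15.05 at the median and 15.37 at the highest on the baseline arrays. On day -4 it read 16.74, 16.30 and 16.22 in irradiated vehicle skin and 16.21, 15.92 and 16.73 in RTA-408 skin, and all 6 irradiated arrays lay above all baseline arrays. The 2 unirradiated arrays of that day read 14.51 and 14.64, below every baseline array. The difference from baseline was 1.40 (SE 0.31, adjusted p = 0.00248) in vehicle skin and 1.27 (SE 0.31, adjusted p = 0.0100) in RTA-408 skin, and by day 14 it was 1.22 and 1.24. On day 1 the unirradiated arrays read 16.45 and 15.48, both above every baseline array, and irradiated vehicle skin read 16.31, 17.15 and 16.10.

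Eif2ak2 on the baseline arrays ranged from 9.36 through a median of 9.69 to 10.05. During the radiation course, on day -4, it read 11.13, 11.27 and 10.35 in vehicle skin and 10.33, 10.93 and 10.57 in RTA-408 skin, all above baseline. On day 7 it read 11.56, 11.33 and 11.86 in vehicle skin and 12.22, 12.39 and 12.08 in RTA-408 skin, and the arms did not overlap. The difference from baseline on day 7 was 1.90 (SE 0.28, adjusted p = 9.49e-06) in vehicle skin and 2.54 (SE 0.28, adjusted p = 1.10e-07) in RTA-408 skin. Unirradiated skin of day 7 had 1 array at 11.42, within the range of vehicle skin, and 1 at 10.14.

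Ifitm1 moved further than its 2 relatives. At baseline it read 10.18 at the lowest, 10.81 at the median and 11.94 at the highest, and on day 1 it read 13.52, 14.47 and 12.22 in vehicle skin and 13.66, 12.75 and 14.22 in RTA-408 skin. Unirradiated skin of day 1 read 12.23 and 11.68, the first of them above every baseline array. On day 7 the arrays read 13.77, 15.14 and 15.46 in vehicle skin and 14.80, 14.92 and 15.36 in RTA-408 skin, so that the arms overlapped and both stood above baseline. The difference from baseline was 2.50 in vehicle skin (adjusted p = 0.00124) and 2.64 in RTA-408 skin (adjusted p = 0.000555) on day 1, and 3.89 (adjusted p = 1.72e-06) and 4.12 (adjusted p = 6.86e-07) on day 7. On day 14 vehicle skin read 12.97, 14.01 and 16.22 and RTA-408 skin 13.00, 12.76 and 12.97. Bst2 (tetherin, which holds budding virus at the membrane) was the fourth membrane protein and was called in both arms on days 7 and 14 and on no earlier day: it read 13.81, 14.73 and 13.85 in vehicle skin and 13.71, 14.53 and 14.04 in RTA-408 skin on day 14, against 11.32 to 12.13 at baseline, a difference of 2.40 and 2.36.

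The 3 genes of the ISG15 system, Isg15, Usp18 and Trim25, were all called in both arms on days 7 and 14, and their median difference from baseline in RTA-408 skin on day 7 was 3.99. Isg15 encodes a ubiquitin-like protein that is coupled to other proteins, and Usp18 the protease that takes it off again and that also dampens the type I receptor. Isg15 read 3.63, 4.34 and 4.54 as the lowest, median and highest baseline array, all of them at or below the negative controls. On day 7 it read 6.15, 5.87 and 7.76 in vehicle skin and 8.64, 8.76 and 9.08 in RTA-408 skin, and the arms did not overlap. It was higher than baseline by at least 0.42 in vehicle skin (adjusted p = 0.00240) and by at least 2.66 in RTA-408 skin (adjusted p = 4.19e-07). These sizes are counted from the negative control median, and the p-values are those of the values as deposited. On day 14 vehicle skin read 5.00, 4.88 and 8.79, with 1 high array, and RTA-408 skin 6.67, 6.60 and 5.51. In vehicle skin Isg15 was not called without replicate 3 of day 7 (adjusted p = 0.0654) or without replicate 3 of day 14 (adjusted p = 0.425), while Usp18 and Trim25 were.

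Usp18 spanned 5.73 to 7.67 on the baseline arrays, with a median of 6.77. On day 7 vehicle skin read 8.74, 8.31 and 8.90, RTA-408 skin 10.99, 10.61 and 10.75, and unirradiated skin 8.64 and 8.38, so vehicle skin with and without radiation overlapped and RTA-408 skin stood above both. The difference from baseline was 1.85 (SE 0.46, adjusted p = 0.00495) in vehicle skin, 3.99 (SE 0.46, adjusted p = 2.48e-07) in RTA-408 skin and 1.72 (SE 0.53, adjusted p = 0.0733) in unirradiated skin. On day 14 the readings were 8.02, 9.09 and 11.95 in vehicle skin, 9.68, 8.60 and 8.46 in RTA-408 skin and 7.26 and 7.14 in unirradiated skin.

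**Figure D3:**
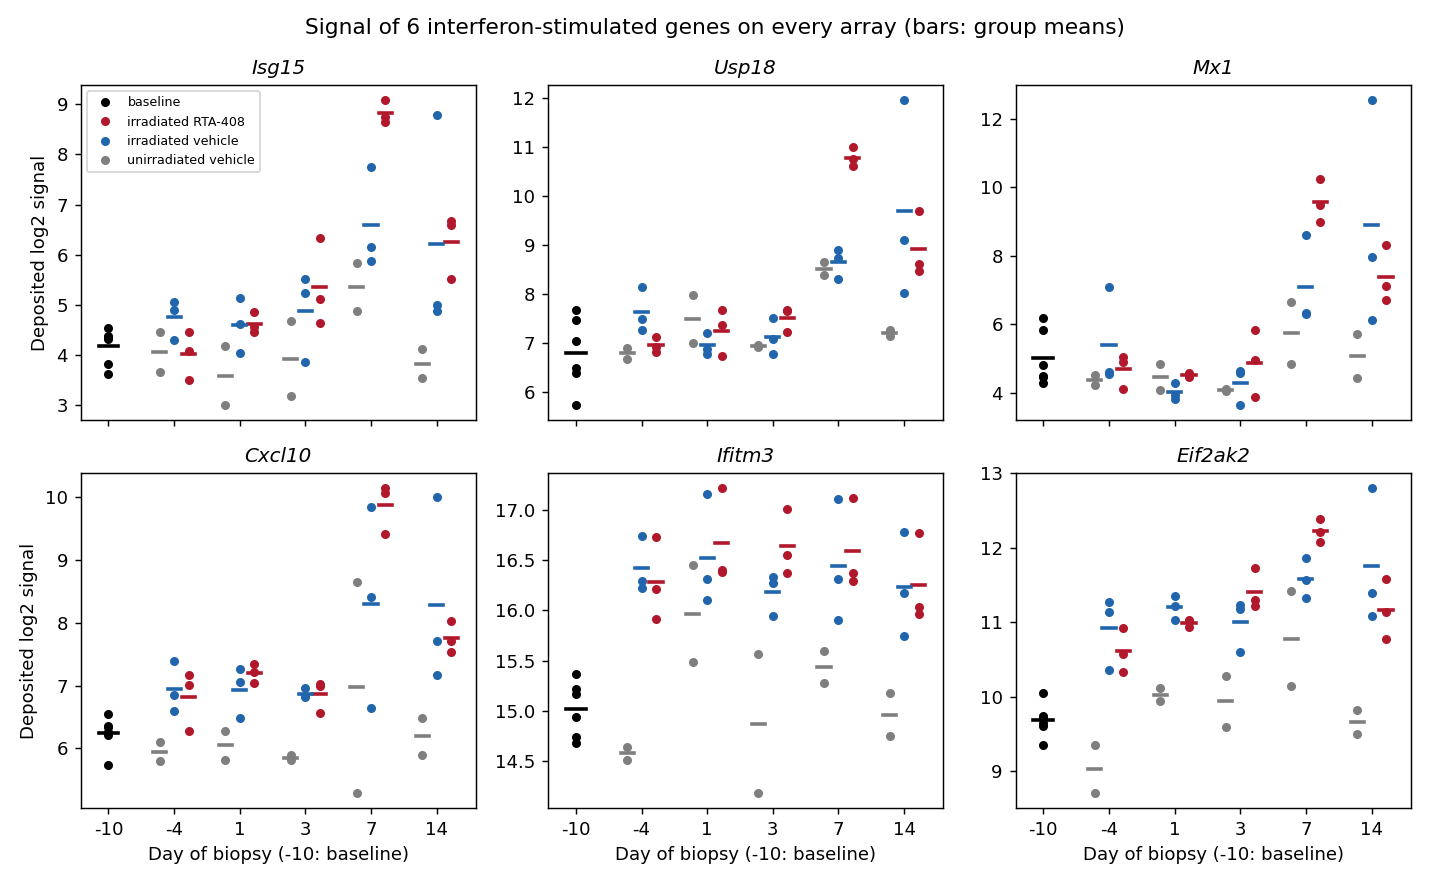
Deposited log2 signal of Isg15, Usp18, Mx1, Cxcl10, Ifitm3 and Eif2ak2 on every array (points) by day of biopsy and arm, with bars at the group means and each gene on an axis of its own. Isg15, Usp18, Mx1 and Cxcl10 were not called against baseline before day 7 and have their highest group mean on day 7 in RTA-408 skin, while Ifitm3 is above baseline in irradiated skin from day -4.

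The regulators of the response rose on day 7 in RTA-408 skin, 4 of 4, and 1 of 4 was called in vehicle skin. Irf7, the factor that drives further interferon production, read 5.25 at the lowest, 6.03 at the median and 6.47 at the highest at baseline. On day 7 it read 7.31, 6.47 and 8.42 in vehicle skin and 9.95, 8.62 and 9.64 in RTA-408 skin, with no overlap between the arms, and its difference from baseline was 3.41 in RTA-408 skin (SE 0.59, adjusted p = 6.69e-05). On day 14 it read 6.93, 8.21 and 10.96 in vehicle skin, called at 2.71 (adjusted p = 0.00114) but not without replicate 3 (1.58, adjusted p = 0.0890), and 7.99, 7.35 and 7.58 in RTA-408 skin. Irf1, induced by interferon gamma and by inflammatory signals, was the regulator called in vehicle skin on day 7, where it read 8.43, 9.60 and 9.99, and the RTA-408 arrays read 9.54, 8.48 and 10.31, against 6.16 to 7.83 at baseline. The differences were 2.23 (adjusted p = 0.000241) and 2.34 (adjusted p = 0.000112).

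Irf9 and Stat2 encode proteins of the complex that binds the ISRE. Irf9 on day 7 read 9.24, 8.74 and 9.79 in vehicle skin and 9.90, 9.80 and 9.67 in RTA-408 skin, against 8.00 to 9.17 at baseline, and the difference was 1.19 in RTA-408 skin (adjusted p = 0.00656). Stat2 read 8.39, 8.64 and 9.54 in vehicle skin and 9.95, 9.07 and 9.71 in RTA-408 skin, against 7.95 to 8.52, with a difference of 1.31 (adjusted p = 0.00922). On day 14 Stat2 was at 11.01 on replicate 3 of vehicle skin and between 8.03 and 8.59 on the other 5 irradiated arrays.

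All 8 antiviral effectors were called in RTA-408 skin on day 7, with a median difference of 2.99, and 4 of 8 in vehicle skin, with a median of 1.30, or none of 8 and a median of 0.89 without replicate 3 of vehicle skin. Mx1 and Mx2 encode dynamin-like GTPases that trap viral nucleocapsids. Mx1 at baseline read 4.29, 4.66 and 6.20 as lowest, median and highest. On day 7 it read 6.30, 6.34 and 8.60 in vehicle skin and 10.23, 8.98 and 9.48 in RTA-408 skin, which did not overlap. The difference from baseline in RTA-408 skin was 4.55 (SE 0.78, adjusted p = 6.36e-05). Every baseline array but the highest lay below its negative control median, so part of this difference lies under the negative controls. On day 14 the vehicle arrays spread from 6.14 through 7.97 to 12.53, the highest value of Mx1 on any array, and the RTA-408 arrays read 8.32, 7.13 and 6.71. Mx2 on day 7 read 6.86, 5.90 and 8.28 in vehicle skin, 10.35, 9.07 and 8.57 in RTA-408 skin, and 8.19 and 6.32 in unirradiated skin, against 5.85 to 6.61 at baseline, and the difference in RTA-408 skin was 3.14 (adjusted p = 0.000241).

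Rsad2 (viperin) makes a nucleotide that ends viral RNA chains, and Ifit1, Ifit2 and Ifit3 bind viral RNA and the translation machinery. Rsad2 read 7.76, 8.06 and 8.23 in vehicle skin and 8.90, 10.36 and 9.63 in RTA-408 skin on day 7, against 5.13 to 6.38 at baseline. It was called in both arms, at 2.21 (adjusted p = 0.0277) and 3.83 (adjusted p = 0.000133), though in vehicle skin not without replicate 3 (2.11, adjusted p = 0.116). Ifit3 at baseline read 4.73 to 5.56, at or below the negative controls, and on day 7 it read 5.47, 6.46 and 7.72 in vehicle skin and 8.08, 8.01 and 7.67 in RTA-408 skin, at least 1.75 above baseline (adjusted p = 0.000490). Ifit2 read 7.76, 7.18 and 9.61 in vehicle skin and 9.88, 9.94 and 9.76 in RTA-408 skin, against 6.13 to 7.09 at baseline. Ifit1 behaved otherwise: on day 7 it read 6.64, 7.88 and 6.92 in RTA-408 skin, at least 0.98 above baseline (adjusted p = 6.03e-05), but 4.93, 5.05 and 3.37 in vehicle skin, all at or below the negative controls. On day 14 replicate 3 of vehicle skin, where Ifit2 was at 11.50 and Ifit3 at 9.17, read 3.35 for Ifit1, and replicate 3 of day 7 combined 9.61 for Ifit2 with 3.37 for Ifit1. Both arrays are from rat 320, in which Ifit1 read 3.34, 3.15, 3.49, 3.37 and 3.35 on days -4, 1, 3, 7 and 14. Why the signal stayed flat in this rat was not tested. The Ifit genes are close relatives, and whether their probes pick up each other's transcripts was not tested.

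The OAS family makes 2'-5' linked adenylates that activate the ribonuclease RNase L. Oas1a read 7.52, 6.51 and 8.55 in vehicle skin and 9.78, 8.83 and 9.77 in RTA-408 skin on day 7, against 5.56 to 6.44 at baseline, with differences of 1.42 (adjusted p = 0.0294) and 3.35 (adjusted p = 1.96e-06). Without replicate 3 of vehicle skin its difference there was 0.90 (adjusted p = 0.325). Oasl2 was called in RTA-408 skin at 2.69 on day 7 (adjusted p = 0.000632), where its lowest array read 8.45 and its highest 9.19, against 5.80 to 6.82 at baseline. Oas2 read 7.74, 5.74 and 6.28 there and 5.03, 4.88 and 5.32 in vehicle skin. Oasl was called in no arm on day 7 and in vehicle skin on day 14 (adjusted p = 0.0337), where 1 array read 7.52 and the other 2 read 3.90 and 4.50. Its mean there lay below the negative controls, as did every baseline array, so no size is given, and without that array it was not called. Oas3 lay at or below the negative controls on all 46 arrays, from 4.62 to 5.96, and was not called in any comparison.

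Of the 5 sensors, all were called in RTA-408 skin on day 7, Eif2ak2 alone in vehicle skin. Ifih1 (MDA5) and Dhx58 (LGP2) detect long double-stranded RNA, Zbp1 detects Z-form nucleic acid, and Adar edits double-stranded RNA. Their differences in RTA-408 skin were 1.66 for Ifih1 (adjusted p = 0.00144), at least 0.92 for Dhx58 (adjusted p = 0.00311), at least 0.37 for Zbp1 (adjusted p = 0.00101) and 0.90 for Adar (adjusted p = 0.0183). On day 14 in vehicle skin 4 of the 5 were called, all but Adar, against 2 of 5 in RTA-408 skin, Eif2ak2 and Zbp1, and without replicate 3 of vehicle skin Eif2ak2 was the 1 sensor called there. Parp9, Parp14 and their partner Dtx3l, which modify proteins with ADP-ribose and ubiquitin, were all called in RTA-408 skin on day 7, at 2.00, 1.95 and 1.41, and all in vehicle skin on day 14, at 1.67, 1.97 and 1.17. Without replicate 3 of vehicle skin on day 14 these 3 differences were 0.81, 0.95 and 0.47, and none was called.

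The guanylate-binding proteins and the immunity-related GTPase Igtp attack the compartments of intracellular microbes and are known as genes of the interferon gamma response. All 3 were called in both arms on days 7 and 14. Gbp2 read 10.45, 12.23 and 12.44 in vehicle skin and 12.51, 11.57 and 12.51 in RTA-408 skin on day 7, against 8.61 to 9.86 at baseline and 10.20 and 9.11 in unirradiated skin. The arms overlapped, and the differences from baseline were 2.66 (adjusted p = 1.70e-05) and 3.15 (adjusted p = 1.24e-06). Igtp read 8.61, 9.50 and 10.62 in vehicle skin and 9.32, 10.32 and 10.17 in RTA-408 skin on that day, against 7.02 to 8.10, and Gbp5 was at least 1.23 above baseline in vehicle skin (adjusted p = 0.000395) and at least 1.89 in RTA-408 skin (adjusted p = 9.17e-06). In vehicle skin Gbp2 and Gbp5 were also called without replicate 3 of day 7 or of day 14, and Igtp was not (adjusted p = 0.0914 and 0.521).

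The chemokines Cxcl9, Cxcl10 and Cxcl11, ligands of CXCR3 on activated T and NK cells, were called in both arms on day 7, 3 of 3. Cxcl9 alone of the 3 was also called on day 1, at 1.41 in vehicle skin (adjusted p = 0.0462) and 1.70 in RTA-408 skin (adjusted p = 0.0121), where it read 8.91, 9.15 and 8.88 and 9.56, 9.49 and 8.77, against 6.97 to 8.62 at baseline. The 2 unirradiated arrays of day 1 read 9.23 and 7.14, the first above all 3 irradiated vehicle arrays, and with the rat as a block the vehicle difference was not called (adjusted p = 0.455). On day 3 it read between 6.61 and 8.88 on the 6 irradiated arrays and was not called. Cxcl10 on day 7 read 6.65, 8.42 and 9.84 in vehicle skin and 9.41, 10.07 and 10.15 in RTA-408 skin, against 5.74 to 6.54 at baseline, with differences of 2.06 (adjusted p = 0.00526) and 3.64 (adjusted p = 4.76e-06). The 2 unirradiated arrays of that day read 8.65 and 5.29, with 2 of the 3 vehicle arrays between them. Cxcl11 read 4.84, 8.51 and 8.02 in vehicle skin and 7.00, 5.60 and 8.45 in RTA-408 skin, against 3.46 to 4.90. By day 14 the 3 chemokines were called in RTA-408 skin for none and in vehicle skin for Cxcl10 and Cxcl11. Without replicate 3 of vehicle skin, Cxcl11 was the 1 chemokine called there on day 7 and none was called on day 14.

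Among the 6 remaining genes, 5 were called in RTA-408 skin on day 7 and 4 in vehicle skin on day 14, where Sp100 was the 1 called without replicate 3. Lgals3bp, a secreted galectin-binding glycoprotein, read 9.81, 9.77 and 11.23 in vehicle skin and 11.91, 10.70 and 11.87 in RTA-408 skin on day 7, against 8.92 to 9.77 at baseline, and 14.65 on replicate 3 of vehicle skin on day 14. Sp100, a protein of nuclear bodies, was called in RTA-408 skin on day 7 at 1.70 (adjusted p = 0.000432) and in vehicle skin on days 7 and 14, but not on day 7 without replicate 3 of that day. Ifi27, which was bright at baseline (13.31 to 14.54), moved by 1.18 in RTA-408 skin on day 7 (adjusted p = 0.00475). Ifi35 was called in no comparison. Seen by the day of the highest group mean, 40 of the 44 genes were highest on day 7 in RTA-408 skin, 3 on day 14 and 1 on day 1. In vehicle skin 30 were highest on day 14, 12 on day 7, 1 on day 1 and 1 on day -4, while without replicate 3 of day 14 these counts were 13 on day 14, 26 on day 7, 3 on day 1 and 2 on day -4.

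Unirradiated vehicle skin was compared with baseline to see what repeated biopsy, injection and time did without radiation. Replicate 2 of this arm was rat 318 on days -4, 1 and 3, and rat 317, which has no baseline array, on days 7 and 14. Changes over the days in this arm therefore include a change of rat. None of the 44 genes was called by limma on any day in either direction, against 0.0173%, 0.315%, 0%, 2.71% and 0% of all features on days -4, 1, 3, 7 and 14. At an unadjusted p under 0.05 there were 6, 2, 2, 5 and 1 genes, against 9.12%, 13.5%, 4.56%, 17.4% and 4.24% of features. On day 7 the median difference was 0.51 and 41 of 44 genes lay above baseline, and replicate 1, with a mean over the genes of 8.28, was nearer to the vehicle arrays of that day (8.23, 8.46 and 9.10) than to replicate 2 (7.25). Eif2ak2 had the smallest p on that day, at a difference of 1.09 (adjusted p = 0.0574). With only 2 arrays a day, a difference of moderate size could have gone undetected, and without replicate 4 of baseline 2 genes were called on day 7, and without unirradiated replicate 2 of that day 1 gene.

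Irradiated and unirradiated vehicle skin of the same day were compared to isolate the effect of radiation. On day -4, 3 of 44 genes were called higher (6.82%), against 3.23% of features: Eif2ak2 by 1.89 (SE 0.36, adjusted p = 0.00234), Ifitm3 by 1.84 (SE 0.39, adjusted p = 0.00518) and Sp100 by 1.45 (SE 0.44, adjusted p = 0.0380). No gene was called by limma on days 1 and 3, against 2.1% and 1.3% of features in either direction. At an unadjusted p under 0.05 there were 3 and 6 genes, against 16.4% and 13.6% of features. On day 7 Ifitm1 by 3.50 (adjusted p = 0.00212), Gbp2 by 2.05 (adjusted p = 0.0213) and Cxcl11 by at least 0.96 (adjusted p = 0.0358) were called, 3 genes against 2.69% of features. The count on day 7 was 5 without irradiated replicate 1, 1 without irradiated replicate 2 or 3 and none without unirradiated replicate 2, none within set III and 5 with the set as a block. On day -4 it was none without unirradiated replicate 1 and 1 without replicate 2, and on day 3 it was 1 without unirradiated replicate 1 and 1 with the set as a block.

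On day 14, 28 of 44 genes were called higher with radiation (63.6%), against 4.43% of features, with a median difference of 1.92. Mx1 read 6.14, 7.97 and 12.53 in irradiated and 4.44 and 5.73 in unirradiated skin, a difference of at least 2.78 (adjusted p = 0.0177). Lgals3bp read 10.24, 10.75 and 14.65 against 8.86 and 8.64, a difference of 3.13 (SE 0.74, adjusted p = 0.00886). Oasl2 read 7.43, 6.62 and 10.96 against 5.21 and 5.97, at least 2.23 higher (adjusted p = 0.0165). In each of these genes replicate 3 was far above the other 2 irradiated arrays, which still lay above both unirradiated ones. Trim25 was more even, at 10.66, 11.57 and 11.36 against 9.85 and 9.36, and was called at 1.59 (SE 0.26, adjusted p = 0.000512). Without replicate 3, 5 genes were called: Trim25, Bst2, Eif2ak2, Ifitm1 and Gbp2, and the median difference was 1.10. Without unirradiated replicate 1 the count was 3 and without replicate 2 it was 11, and it was 20 within set III. In a fit of these 5 arrays alone none was called.

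RTA-408 and vehicle were compared in irradiated skin on each day. None of the 44 genes was called by limma on days -4, 1, 3, 7 or 14, against 0.0474%, 0.0733%, 0.00431%, 0% and 0% of all features in either direction. At an unadjusted p under 0.05 the counts were 0, 0, 2, 16 and 8 genes, against 4.21%, 2.84%, 3.44%, 2.64% and 12.5% of features in either direction. All 16 genes of day 7 were higher with RTA-408 and all 8 of day 14 lower. The median difference over the 44 genes was -0.06 on day -4, 0.18 on day 1, 0.43 on day 3, 0.70 on day 7 and -0.67 on day 14, while that over all features lay between -0.02 and 0.02. On day 7 every RTA-408 array was above every vehicle array for 21 of 44 genes, against 4.69% of all features, and for 9 genes on day 3, against 4.77%, and 4 on day 1, against 4.71%. On days -4 and 14 no gene was so, against 3.89% and 7.15%. Every RTA-408 array was below every vehicle array for 1 gene on day -4 (Usp18) and 2 on day 14 (Rsad2 and Isg20), against 5.68% and 5.02% of features, and for none on days 1, 3 and 7, against 4.55%, 4.13% and 3.35%.

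Ifit1 had the smallest p of the drug comparison: with the day 7 values given above, it was higher with RTA-408 by at least 1.15 (unadjusted p = 2.67e-05, adjusted p = 0.403). Among the vehicle arrays behind this p is that of rat 320, in which Ifit1 stayed low on every array. Usp18 was higher by 2.14 (SE 0.53, adjusted p = 0.944), Isg15 by 2.23 (SE 0.64), Mx2 by 2.32 (SE 0.69), Oas1a by 1.93 (SE 0.52) and Oas2 by at least 0.59, each with an adjusted p of 0.944 or more. In Usp18, Isg15, Mx2, Oas1a, Oas2 and Ifit1 the arms did not overlap on day 7. With every value raised to the negative control median of its array, an alternative chosen after the data were seen, Ifit1 (1.15, adjusted p = 0.00362) and Isg15 (2.18, adjusted p = 0.0380) were called on day 7. Raising sets arrays below the negative controls to their median and so narrows the spread, to an SE of 0.17 for Ifit1 and 0.40 for Isg15. These 2 p-values are therefore not comparable with those of the main fit. The chemokines and GTPases differed less, with median differences of 0.25 and 0.49 on that day, against 2.14 for the 3 genes of the ISG15 system and 1.65 for the 8 antiviral effectors. Single genes went against these medians. Trim25 of the ISG15 system read 10.47, 10.80 and 10.61 with RTA-408 and 10.42, 10.24 and 10.53 with vehicle, which overlap. The chemokine Cxcl10 had means of 9.88 and 8.30. Whether the roles differ from each other was not tested.

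**Figure D4:**
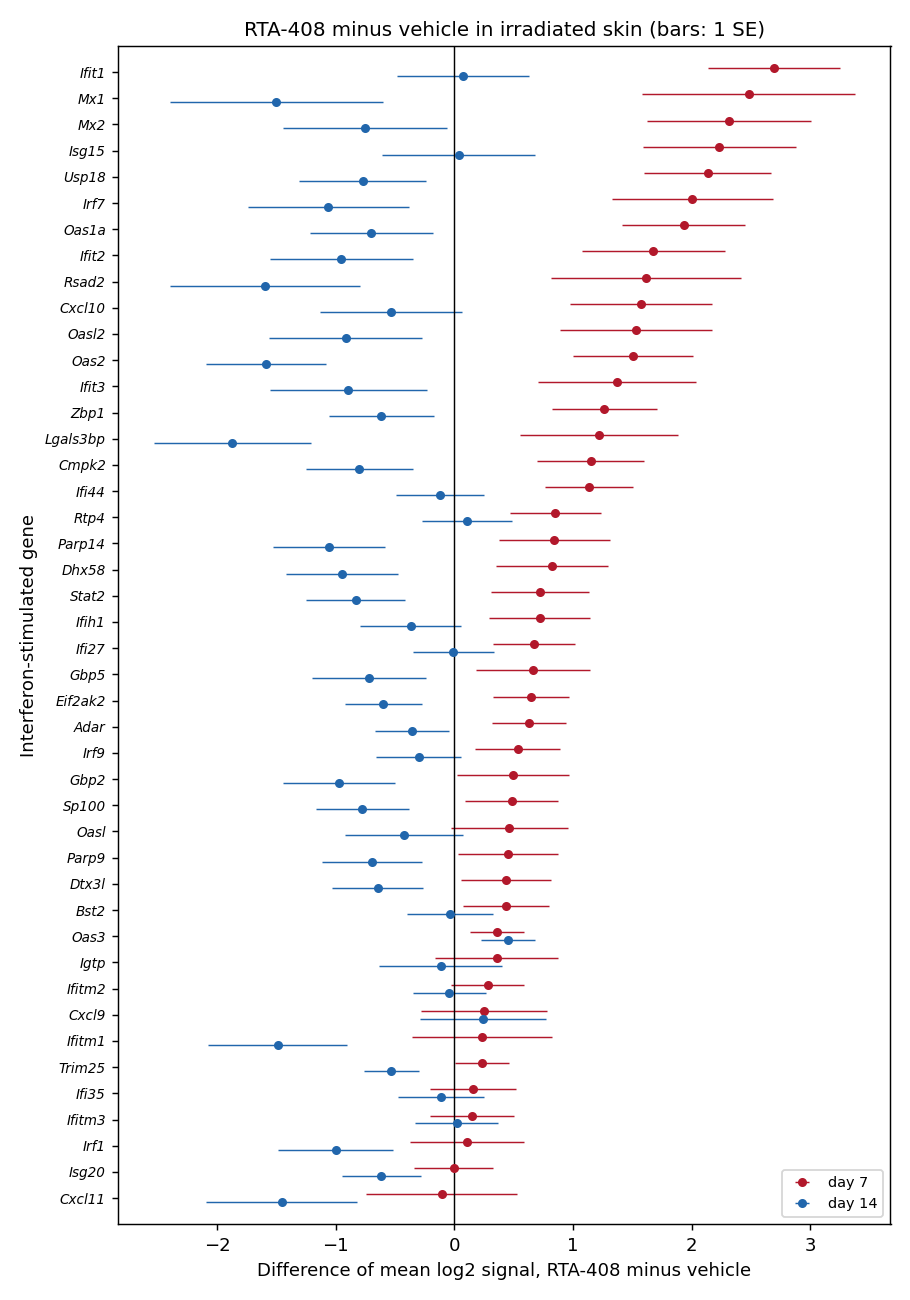
Difference of mean log2 signal between RTA-408 and vehicle in irradiated skin for each of the 44 genes on day 7 and day 14 (points, with bars of 1 SE), ordered by the difference on day 7 and as measured also for genes at the negative controls. On day 7 42 of 44 genes lie above 0 and on day 14 38 of 44 lie below, and no difference passed the adjusted threshold.

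On day 14 the direction of the drug difference rested on 1 array. Oas2 read 5.22, 5.16 and 5.57 with RTA-408 and 5.42, 6.29 and 9.02 with vehicle, so RTA-408 was lower by at least 0.91 (adjusted p = 0.232), and Lgals3bp read 9.67, 10.43 and 9.94 against 10.24, 10.75 and 14.65, a difference of -1.87 (adjusted p = 0.265). Without replicate 3 of vehicle skin the median difference over the 44 genes was 0.09 in place of -0.67. Without replicate 1 of vehicle skin, the lowest of the 3, 7 genes were called lower: Oas2, Lgals3bp, Parp14, Ifitm1, Trim25, Irf1 and Mx1. The share of all features called without that array is not given here, so the 7 are not read as particular to these genes. The difference between day 7 and day 14 in the drug effect was tested as a contrast of its own and called for no gene, against 0% of features, with 27 of 44 genes at an unadjusted p under 0.05 (7.58% of features). The contrast was chosen because an earlier account of these data had interferon genes higher on day 7 and lower on day 14. The 27 genes are therefore no independent evidence of that pattern. Oas2 had the smallest p (adjusted p = 0.499), with no size given since it lay at the negative controls in 2 of the 4 groups, and Usp18 followed at 2.91 (SE 0.76, adjusted p = 0.517). The median over the 44 genes was 1.37, or 0.69 without replicate 3. Without replicate 1 the contrast was called for 10 genes, again with no share of all features beside them.

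Changes over the 5 days were tested with a moderated F-test within each arm. In vehicle skin 25 of 44 genes changed (56.8%), against 14.2% of features, and in RTA-408 skin 23 changed (52.3%), against 6.26%. In unirradiated skin none did, against 1.13% of features, with 7 genes at an unadjusted p under 0.05 (16.7% of features). Usp18 (adjusted p = 2.26e-05) and Isg15 (adjusted p = 3.13e-05) had the smallest p in RTA-408 skin, and Trim25 (adjusted p = 6.72e-05) and Bst2 (adjusted p = 9.17e-05) in vehicle skin. In RTA-408 skin 15 genes changed without replicate 1 or without replicate 3 of day 7, and 15 with the set as a block. The drug difference changed over the days for no gene, against 0.0129% of features, with 10 at an unadjusted p under 0.05 (5.18% of features) and the smallest p for Ifit1 (adjusted p = 0.587). Without replicate 1 of vehicle skin on day 14, 2 genes passed. The radiation difference changed over the days for Trim25 (adjusted p = 0.0432), 1 gene against 2.16% of features, and for none when any of 14 arrays was left out. Without replicate 1 of vehicle skin on day 14, 9 genes passed. In unirradiated skin 1 gene passed without its replicate 2 of day 1.

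The interferon genes themselves stayed dim. Ifnb1, Ifng and Ifnk lay at or below the negative controls on all 46 arrays and Ifna4 on 45 of 46, which is no measure of interferon protein or of a brief peak between biopsies. Among 30 measured genes of interferon signalling and sensing, of 42 listed, 16 were called higher in RTA-408 skin on day 7 and 7 on day 14, and 14 and 18 in vehicle skin. Of all features, 9.12% and 5.53% were called higher in RTA-408 skin and 7.92% and 9.47% in vehicle skin on these days, and without replicate 3 of vehicle skin on day 14 the count of 18 was 8. None of the 30 was called by limma between RTA-408 and vehicle on any day. Myd88, the adaptor of most Toll-like receptors, rose from a mean of 9.85 at baseline to 12.13 in RTA-408 skin on day 7, by 2.28 (SE 0.33, adjusted p = 7.48e-06). Il10rb, a chain of the type III interferon receptor and of the IL-10 receptor, rose by 1.90 (adjusted p = 7.00e-06). A second list held further interferon-inducible genes, of which 42 of 67 were measured: 30 were called in RTA-408 skin on day 7 and 10 on day 14, and 19 and 30 in vehicle skin, where the counts were 8 without replicate 3 of day 7 and 14 without replicate 3 of day 14. Its smallest p values in RTA-408 skin on day 7 belonged to the complement protease C1s (2.84, adjusted p = 9.31e-07), the lysosomal thiol reductase Ifi30 (2.82, adjusted p = 4.74e-06), the complement inhibitor Serping1 (2.54, adjusted p = 1.42e-05) and Nmi (2.08, adjusted p = 1.98e-05).

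Several lists of immune and other cell markers also had genes called higher, but their time courses were not all those of the interferon-stimulated genes. Of 14 measured macrophage and monocyte markers, 13 were called higher in RTA-408 skin and 12 in vehicle skin on day 7, and 10 and 13 on day 14, and 9 and 7 already on day 1. The mean of the list was 7.71 to 8.98 at baseline, 11.12 to 11.86 in RTA-408 skin and 10.40 to 11.91 in vehicle skin on day 7, and 8.57 to 8.79 in unirradiated skin. On replicate 3 of vehicle skin on day 14 it was 14.46, against 10.15 and 11.35 on the other 2, and Marco lay at or below the negative controls on all 46 arrays. On day 7 the drug difference of the list had a median of 0.42 and none of the 14 markers was called. Of 17 measured T and NK cell markers, 5 were called in RTA-408 skin and 3 in vehicle skin on day 7, and 5 and 12 on day 14. The list mean was 4.95 to 5.33 at baseline, 5.58 to 6.28 in RTA-408 skin and 5.49 to 6.08 in vehicle skin on day 7, and 8.14 on replicate 3 of vehicle skin on day 14. Without that array the day 14 counts in vehicle skin were 5 of 17 for this list and 11 of 14 for macrophages and monocytes, and without replicate 3 of vehicle skin on day 7 none of the 17 was called there. The markers Cd3d, Cd3e, Cd3g, Cd247, Cd5, Gzma, Gzmb and Ncr1 were at or below the negative controls on all 46 arrays. Prf1, Nkg7, Klrd1 and Lck were so on 41 to 45 arrays. Cd8a, Cd8b and Il2rb were so on 39, 40 and 33 arrays, and their highest arrays read 15.77, 12.69 and 9.88. Cd2 and Cd4 were above the negative controls on all 46 arrays, and Cd4 is also carried by rat macrophages. Of 7 neutrophil markers 4 were called in both arms on day 7, with list means of 7.82 to 8.61 in RTA-408 skin and 7.75 to 8.26 in vehicle skin, against 4.68 to 5.61 at baseline. Of 5 red blood cell markers 4 were called higher in both arms on day 7 (1 in vehicle skin without its replicate 3) and none on day 14, and the list mean on day 7 was 13.6 to 15.1 in RTA-408 skin and 13.9 to 14.6 in vehicle skin, against 11.3 to 13.2 at baseline. Of 4 measured keratinocyte markers 3 were called higher in both arms on day 7, with list means of 16.9 to 17.2 and 16.6 to 17.3, against 15.2 to 16.6. That list was already at 16.9 to 17.4 in irradiated vehicle skin on day -4 and at 17.0 to 17.6 in unirradiated skin on day 1. Of 6 fibroblast markers 3 were called higher in both arms, with list means of 17.3 to 17.6 and 17.2 to 17.5, against 15.9 to 17.2. The mean of 9 skeletal muscle markers ran from 6.14 to 18.18 over the baseline arrays, and none was called. Endothelium means of day 7, at 9.23 to 9.52 in RTA-408 skin and 8.90 to 9.15 in vehicle skin, lay within 8.49 to 9.91 at baseline. Those of Langerhans and dendritic cells, at 6.41 to 7.18 and 6.41 to 7.02, overlapped 6.35 to 6.71 at baseline. Those of plasmacytoid dendritic cells, at 8.80 to 9.53 and 8.76 to 9.05, lay above 7.75 to 8.19. Of that list Siglech, Ly6c1 and Flt3 were not measured, and Spib lay at or below the negative controls on all 46 arrays. Its mean rests on Tcf4, Clec10a, Runx2 and Irf8, and Irf8 is also on the list of interferon signalling and sensing. The list mean is therefore not read as a measure of these cells. The part of these cells in the interferon result was not tested.

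**Figure D5:**
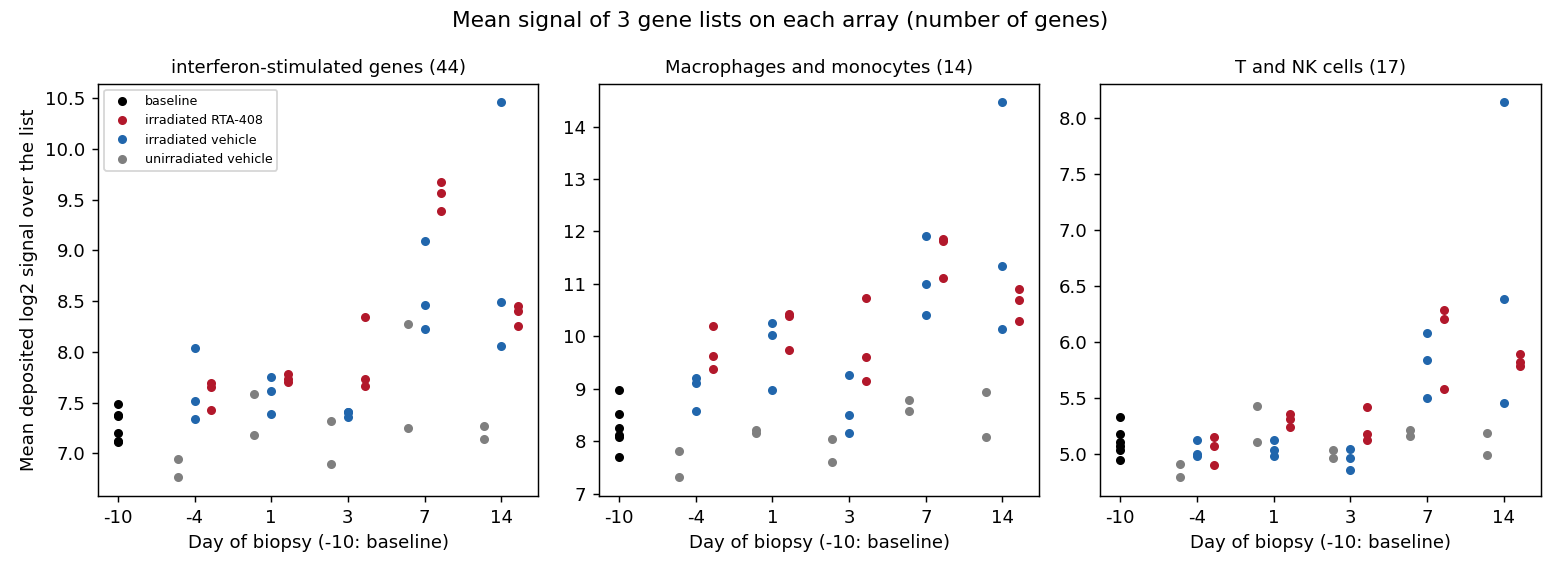
Mean deposited log2 signal on each array over the 44 interferon-stimulated genes, 14 macrophage and monocyte markers and 17 T and NK cell markers, by day of biopsy and arm. Replicate 3 of vehicle skin on day 14 is the highest array in all 3 panels, at 10.46, 14.46 and 8.14, and on day 7 every RTA-408 array is above every vehicle array in the first panel, while the arms overlap in the other 2.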

How the data were processed

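Skin RNA (100 ng) was hybridised to Clariom S rat arrays after WT Plus labelling, per the labels' protocols. The deposited table holds the authors' log2 values, 1 column for each of 46 arrays. Their normalization is not stated in the labels used. Tests ran on 23188 of its 24834 features, without the 1646 controls. Samples were grouped by their titles. For 1 unirradiated array of day 1 the description names another day, and the title was followed.

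limma 3.58.1 (R 4.3.3) fitted 1 mean per group over all 46 arrays and 16 groups, with 30 residual degrees of freedom, and p-values were Benjamini-Hochberg adjusted over all features. Precision is limited by the 2 to 6 arrays per group, and an array gives no read depth. The 44 genes and all lists were chosen with earlier results of these data known, so their direction is no independent evidence. Array values were given by rule for the called genes of largest difference, those of smallest p and a panel by role, and up to 4 genes per list by smallest p. Ifit2, Oasl, Oasl2 and Igtp were added after their values were seen. Baseline and later arrays share rats. The correlation within a rat was 0.006724, from a fit with the rat as a random block. The rat-block counts beside the results are from a separate fit, with a term for each rat. Alternatives were array set, rat or replicate number as a block, quantile normalization, a filter on dim features, the compared groups alone, raising values to the negative control median, and leaving out each array.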

Additional observations from a re-analysis of the deposited data

Results flagged for a closer look

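Ifit1 on baseline replicate 4 was at 5.443, against 3.838 to 4.423 on the other 5 baseline arrays, a gap wider than expected in a group of 6. It was 1 of 44 genes so marked, where chance marks about 1 in 20 groups.

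The difference between irradiated and unirradiated vehicle skin changed over the days for Trim25 (adjusted p = 0.0432, limma's moderated F-test). Both values are given with no explanation.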

How the results depend on the processing

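The counts below are of the 44 genes called, and each is read against the count of the report. Shares of all features called were set beside the counts of the main fit alone. In fits of the compared groups alone, the radiation comparison called 8 genes on day -4 and 0 on day 14, vehicle skin against baseline 8, 8, 7 and 9 on days -4, 1, 3 and 14, and RTA-408 skin 3, 11 and 28 on days -4, 1 and 14. Changes over the days passed for 7 genes in vehicle skin and for 0 in the radiation difference in such fits, which estimate the spread from fewer arrays. With the rat as a replicate block, in which the rat of replicate 3 of each irradiated arm has no baseline array, RTA-408 skin had 1, 4 and 9 called genes on days -4, 3 and 14 and vehicle skin 0, 1, 9 and 15 on days 1, 3, 7 and 14. No other count of the baseline comparisons moved by over 1.5 times under this block. Between arms the replicate numbers share only a number: as a replicate block they gave 18 called genes in the radiation comparison on day 14 and moved no other count so far. Of 25 pairs of same-numbered arrays, between the irradiated arms or between irradiated and unirradiated vehicle skin, 7 correlated above 0.1 in their deviations, from -0.378 to 0.254.

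With the spike-in set as a block, RTA-408 skin had 2, 1, 20 and 2 called genes on days -4, 3, 7 and 14 and 15 changing over the days, vehicle skin 0, 5 and 9 on days 3, 7 and 14, and the radiation comparison 1 and 5 on days 3 and 7. Within set I RTA-408 skin had 1 on day -4, and within set III the radiation comparison had 0 on day 7. Quantile normalization gave 3 in RTA-408 skin on day -4. Without the 5797 dimmest features, 5 were called in the radiation comparison on day -4 and 1 in unirradiated skin on day 7. Raising values to the negative control median, chosen after the data were seen, gave 2 in the drug comparison on day 7, and turned Oas3 in RTA-408 skin on day 7 to -0.28, a gene at the negative controls on all arrays. This setting narrows the spread of genes at the negative controls, so its p-values are not comparable with those of the main fit. The cause of these shifts was not tested.

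Leaving out 1 array at a time gave, on days -4, 1, 3, 7 and 14 in turn, 0 to 6, 5 to 10, 5 to 6, 37 to 41 and 9 to 15 called genes in RTA-408 skin, and 2 to 3, 3 to 6, 1 to 4, 11 to 24 and 11 to 40 in vehicle skin. The radiation comparison gave 0 to 3, 0 to 0, 0 to 1, 0 to 5 and 3 to 33, the drug comparison 0 on the first 4 days and 0 to 7 on day 14, and unirradiated skin 0 to 2 on day 7 and 0 on the other days. Over the days the ranges were 20 to 33 in vehicle skin, 15 to 24 in RTA-408 skin, 0 to 1 in unirradiated skin, 0 to 2 for the drug difference, 0 to 9 for the radiation difference and 0 to 10 for the drug difference of day 7 minus that of day 14. Leaving out 1 array never removed a whole rat, and rat 320 gave replicate 3 of vehicle skin on both day 7 and day 14. Averaging several features per gene gave nothing, since each gene has 1. The signal over the negative controls limits 14 of the 44 genes at baseline to a bound.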
